A study of Mus musculus with 2 samples.

Results

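The T cells of a healing skull bone defect were studied in 2 single-cell RNA libraries, one from mice given gambogic amide (GA), a small molecule, and one from mice given the vehicle. A cell was counted as a T cell when it held at least 3 UMIs (unique molecular identifiers, each standing for 1 captured RNA molecule) of the genes for the CD3 chains, Cd3d, Cd3e and Cd3g in sum, at most 3 UMIs of the B cell genes Cd79a and Cd79b, less than 3% of its UMIs from the neutrophil genes S100a8 and S100a9, less than 2 UMIs of the macrophage gene Csf1r and less than 1% from Col1a1, Col1a2 and Col3a1. The rule found 253 T cells among the 17129 cells within the quality limits. Of these, 128 of 9036 cells were in the GA library and 125 of 8093 in the control library. C57BL/6 mice aged 2 months received 100 µL of GA at 1.2 mg/kg in 10% DMSO, or of 10% DMSO alone, into the peritoneal cavity each day from 24 h before the injury for 1 week, as labelled. The calvaria carried a defect of 1.8 mm, and its centre and edges were digested with collagenase on day 7. Cells of 5 mice were pooled in each library, so that no replicate exists within a group, no test between the groups is possible and every interval given here is a 95% interval that covers counting error only. The T cells held 1384814 UMIs in GA and 1096129 in control, with a median of 9395 and 6941 UMIs per cell.

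T cells carry a receptor made of α and β chains or of γ and δ chains, which signals through the CD3 complex. Most αβ T cells carry the coreceptor CD4 (helper and regulatory cells) or CD8 (cytotoxic cells), whereas many γδ T cells settle in barrier tissues early in life and make either interleukin 17, a cytokine that calls in neutrophils and acts on bone-forming and bone-resorbing cells, or interferon γ. Some T cells also carry the inhibitory and activating receptors of natural killer (NK) cells.

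The members were chosen by their CD3 counts, which are therefore given as a description. The median T cell held 18 CD3 UMIs in GA and 15 in control. Only 2 members of each library sat at the lower bound of 3 UMIs, and 1 GA cell and 2 control cells just outside it had 2 UMIs and met every other criterion. Of 144 GA cells with at least 3 CD3 UMIs, 16 were left out, 12 of them for S100a8 and S100a9, 2 for Csf1r, 1 for Cd79 and 1 for collagen. The control library lost 18 of 143 such cells, 8 by S100a8 and S100a9, 9 by Csf1r, 2 by Cd79 and 1 by collagen, some by more than 1 of these. No barcode outside the quality limits met the rule. The libraries shared 23 barcodes, none of them a T cell in both.

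Genes that the rule did not use were in keeping with the label. Every member held a UMI of a receptor constant gene (Trac, Trbc1, Trbc2 or Trdc). Trbc1 was also found in 39.1% of GA and 40.4% of control cells of the CD3-low Klr gate described below. Such a UMI is therefore not particular to T cells. Trbc2, which encodes a β chain constant region, was found in 120 of 128 GA cells (93.8%) and 120 of 125 control cells (96.0%), and Trac, the α chain, in 93 (72.7%) and 81 (64.8%). In the neutrophil gate (4767 and 2030 cells with at least 3% of UMIs from S100a8 and S100a9 and at most 3 UMIs of Cd79a and Cd79b), which should lack these genes, Trac was found in 0.168% and 0.246% of cells, at median depths of 7467 and 5637 UMIs. Bcl11b, a transcription factor that fixes T cell identity, was found in 66.4% of GA and 76.0% of control T cells, against 0.147% and 0.246% of that gate. The CD3 genes lie together on chromosome 9 (GRCm38), with Cd3g at chr9:44969572-44980431, Cd3d at chr9:44981786-44987339 and Cd3e at chr9:44998740-45009627.

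T cells were a small and similar share of both libraries. They made up 1.42% (1.18 to 1.68) of the GA cells and 1.54% (1.29 to 1.84) of the control cells, with a ratio of 0.917 (0.718 to 1.17). The neutrophil gate held 52.8% of the GA cells and 25.1% of the control cells, and the T cell share depended on whether those cells were in the total. Among cells with less than 3% of UMIs from S100a8 and S100a9, T cells were 128 of 4254 (3.01%) in GA and 125 of 6058 (2.06%) in control, with a ratio of 1.46 (1.14 to 1.86). The direction of the difference therefore turned with the denominator.

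Receptor and coreceptor genes divided the T cells into gates. The γδ gate took cells with at least 2 UMIs of Trdc, the δ chain constant gene, or with 1 where no αβ constant gene was seen. It held 35 cells of GA (27.3%) and 36 of control (28.8%), which is a ratio of 0.949 (0.640 to 1.41). The CD8 gate (a UMI of Cd8a or Cd8b1 and none of Cd4) held 34 (26.6%) and 28 (22.4%) cells, at a ratio of 1.19 (0.767 to 1.83). The CD4 gate held 10 GA cells (7.81%, 3.81 to 13.9) and 26 control cells (20.8%), with a ratio of 0.376 (0.189 to 0.746). Cells with αβ constant genes and neither coreceptor numbered 48 (37.5%) and 34 (27.2%), and 1 cell of each library held both coreceptors. In the counts as deposited, the CD4 gate was the one whose share differed between the libraries by more than the counting error. After each cell was thinned to 2000 UMIs, which evens out the depth, the CD4 gate held 4 of 94 GA T cells and 14 of 89 control T cells, a ratio of 0.271, and the CD8 gate held 20 and 10, a ratio of 1.89 (1.12 at 4000 UMIs). A missing coreceptor UMI does not show that the protein was absent, since Cd4 was sampled at only 20 UMIs over its own gate in GA and 42 in control.

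**Figure D1:**
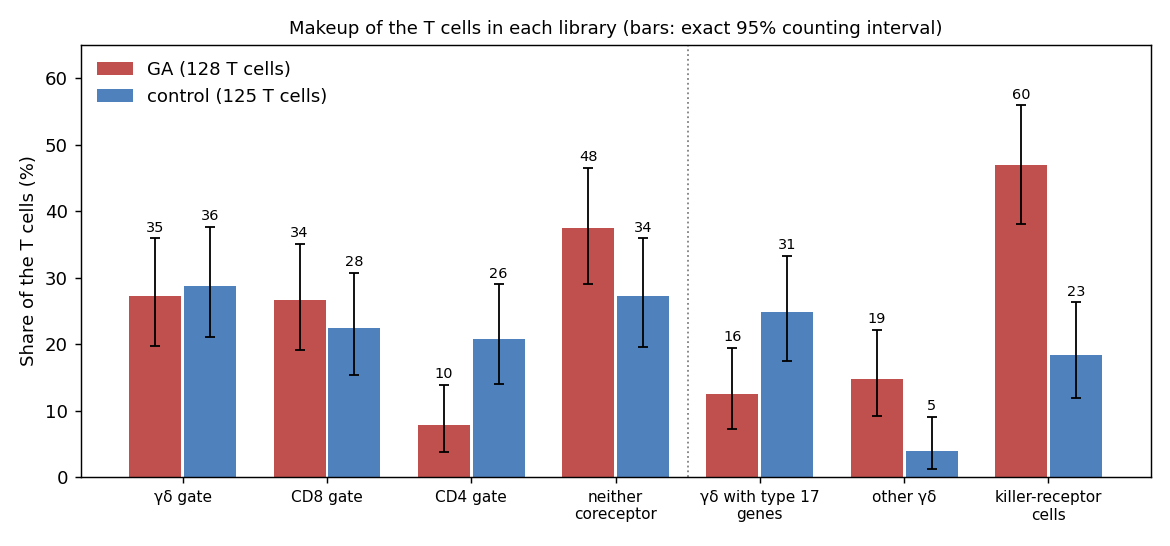
Share of the T cells of each library (y axis, percent) in each receptor and coreceptor gate and, right of the dotted line, in groups defined after the values were seen, with exact 95% counting intervals and the number of cells above each bar. The γδ gate has nearly the same height in both libraries, while its cells with type 17 genes are 16 in GA and 31 in control, and cells with killer receptors are 60 and 23.

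The γδ gate differed in makeup between the libraries. Its own share was alike in the counts as deposited, but with every cell thinned to 2000 UMIs it held 18 of 94 GA T cells (19.1%) and 26 of 89 control T cells (29.2%), a ratio of 0.655, and at 4000 UMIs the ratio was 0.754. A type 17 group was defined, after the values were seen, by at least 2 UMIs of Il17a, Il23r, Cd163l1 and 5830411N06Rik together. Il17a encodes the cytokine interleukin 17A, Il23r a receptor chain for interleukin 23, and Cd163l1 and 5830411N06Rik are neighbouring scavenger receptor genes on chromosome 7 (chr7:140218267-140231145 and chr7:140247284-140300736) whose products mark γδ T cells that make interleukin 17. This group held 16 of 35 γδ cells in GA (45.7%, 28.8 to 63.4) and 31 of 36 in control (86.1%, 70.5 to 95.3), a ratio of 0.531 (0.362 to 0.779). Set against all T cells it was 12.5% in GA and 24.8% in control, and the remaining γδ cells numbered 19 and 5, a ratio of 3.71 (1.43 to 9.63). By this gate, the GA library thus held fewer type 17 γδ cells and more of the other γδ cells. Some of the other γδ cells of both libraries held more αβ constant UMIs than Trdc UMIs. With Trdc required above Trac, Trbc1 and Trbc2 together, the γδ gate held 16 of 128 GA and 21 of 125 control T cells, a ratio of 0.744. The type 17 and the other γδ cells were not counted under that rule. After thinning to 2000 UMIs the group was 10 of 18 and 24 of 26 γδ cells, a ratio of 0.602. None of 161 GA and 197 control cells in a B cell gate had 2 such UMIs. In the neutrophil gate 3 cells of each library did (0.0629% and 0.148%).

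These genes led the γδ gate over the other T cells in both libraries. Besides Trdc, the 10 genes with the highest ratio were Il17a, Cd163l1, Cdh10, Il23r, Trdv4, Tcrg-C1, Ablim3, 5830411N06Rik and Il1r1, the last of which encodes the interleukin 1 receptor. Trdv4 and Tcrg-V6 encode the variable segments of the δ and γ chains of a γδ receptor that arises in fetal life. A UMI of either was found in 12 of the 35 γδ cells in GA and 22 of the 36 in control, a ratio of 0.561 (0.331 to 0.951). Cd163l1 was found in 9 GA γδ cells (25.7%) and 25 control γδ cells (69.4%), and Trdv4 or Tcrg-V6 accompanied it in 9 of those 9 and in 22 of those 25. Among γδ cells without Cd163l1, the same segments were seen in 3 of 26 GA cells and 0 of 11 control cells. The other scavenger receptor gene, 5830411N06Rik, was found in 7 γδ cells of GA and 10 of control, with a ratio of 0.720 (0.309 to 1.68), and 0 GA cells and 5 control cells held both genes. The smaller number of type 17 γδ cells in GA was therefore mostly in the group with Cd163l1 and Trdv4 or Tcrg-V6. Trdv4 was also found in 4 of 138 GA cells and 13 of 198 control cells of a CD3-low gate chosen on Ncr1, Klrb1c and Klrd1, here called the CD3-low Klr gate.

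Promoter sequences of Il17a, Il23r and Cd163l1 are shown because the levels of these genes defined the group. Each is the 250 bases before the transcription start in RefSeq (GRCm38.p6), 5′ to 3′ on the strand of the gene, with capitals for matches on either strand to AGGTCA, a half-site bound by several nuclear receptors, and to TGTGGT, the core bound by RUNX factors. The windows are chr1:20730655-20730904 (plus strand), chr6:67491856-67492105 (minus strand) and chr7:140218017-140218266 (plus strand).
Il17a: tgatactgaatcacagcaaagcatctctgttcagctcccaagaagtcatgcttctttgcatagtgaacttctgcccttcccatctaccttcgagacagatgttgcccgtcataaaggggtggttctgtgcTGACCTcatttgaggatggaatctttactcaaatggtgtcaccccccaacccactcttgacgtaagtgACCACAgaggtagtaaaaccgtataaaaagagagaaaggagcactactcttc
Il23r: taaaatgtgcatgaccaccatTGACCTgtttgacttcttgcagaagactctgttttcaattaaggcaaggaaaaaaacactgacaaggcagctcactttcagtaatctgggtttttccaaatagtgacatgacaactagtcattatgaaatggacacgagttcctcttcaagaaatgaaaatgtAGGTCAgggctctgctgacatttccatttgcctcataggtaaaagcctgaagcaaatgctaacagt
Cd163l1: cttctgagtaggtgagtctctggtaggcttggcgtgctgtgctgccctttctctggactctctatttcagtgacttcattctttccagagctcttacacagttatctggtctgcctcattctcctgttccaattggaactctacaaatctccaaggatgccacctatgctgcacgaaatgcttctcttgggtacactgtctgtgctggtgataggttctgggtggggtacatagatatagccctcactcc
Il17a held 1 match to AGGTCA and 1 to TGTGGT, which do not overlap, and Il23r held 2 to AGGTCA. The Cd163l1 window held neither word. Across 32851 promoter windows of this length, 14.0% held AGGTCA and 14.0% held TGTGGT on either strand, so that these matches are common and describe the sequence only.

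Within the type 17 γδ cells, several genes of this lineage that did not define the group had close levels in both libraries, and others did not. Summed over 16 GA and 31 control cells (106931 and 185628 UMIs), the transcription factor gene Maf stood at 776 and 695 CPM (UMIs of the gene per 1000000 UMIs of those cells), a log2 ratio of GA over control of 0.16 (-0.26 to 0.57). Il1r1 was at 954 and 792 CPM, a log2 ratio of 0.27 (-0.11 to 0.64). The chemokine receptor gene Cxcr6 was at 1066 and 1196 CPM, a log2 ratio of -0.17 (-0.50 to 0.17). Each of these intervals includes 0. Il17a, one of the defining genes, was at 608 CPM in GA (65 UMIs in 8 of 16 cells) and 743 CPM in control (138 UMIs in 13 of 31 cells), a log2 ratio of -0.29 (-0.74 to 0.15). Summed over all T cells, by contrast, Il17a stood at 47.7 CPM (38 of its 66 UMIs outside the richest cell) and 134 CPM (98 of 147 UMIs outside the richest cell), a log2 ratio of -1.49 (-1.93 to -1.06). As Il17a helped to choose the group, its level there cannot tell fewer such cells from less Il17a in each cell. Other intervals within the group did not include 0. Trdv4 was lower in GA, at 196 and 415 CPM, a log2 ratio of -1.08 (-1.85 to -0.37), as were Rgs2, a regulator of G protein signalling (-1.04, -1.74 to -0.38), and the γ chain constant gene Tcrg-C4 (-1.37, -2.94 to -0.07). The immediate early genes did not share a direction. They had log2 ratios of 0.93 (0.35 to 1.52) for Fos, 0.87 (0.20 to 1.54) for Dusp1 and 1.04 (0.01 to 2.10) for Nr4a1, while Junb (0.19), Fosb (0.38), Nr4a3 (0.66), Nfkbia (0.31), Tnfaip3 (-0.19), Nr4a2 (-0.55), Jun (-0.64) and Egr1 (-1.20) had intervals that include 0. Ckb, Blk and the cytokine gene Csf2 (7 UMIs in GA and 1 in control) were higher in GA as well, and Il22 had 5 UMIs in 1 GA cell and 0 in control. Of the defining genes, 5830411N06Rik stood higher in GA, at 608 and 286 CPM, a log2 ratio of 1.09 (0.54 to 1.64), and Cd163l1 lower, at 1216 and 1568 CPM (-0.37, -0.68 to -0.06).

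Another programme, of NK cell receptors, was carried by many T cells and by more of them in GA. A killer-receptor group was defined, again after the values were seen, by at least 3 UMIs of Ncr1, Klrb1c, Klra8, Klra4, Klra7 and Klre1 together. The Klra genes encode Ly49 receptors for class I molecules, and as close copies they may share reads, so their sum is safer than any single gene. The group held 60 of 128 GA T cells (46.9%) and 23 of 125 control T cells (18.4%), a ratio of 2.55 (1.69 to 3.85). It took 14 of 35 GA γδ cells and 4 of 36 control γδ cells, 13 of 34 and 5 of 28 cells of the CD8 gate, and 33 of 48 and 14 of 34 cells with neither coreceptor. The share was higher in GA in each of these gates, with ratios of 3.60 (1.31 to 9.88), 2.14 (0.869 to 5.28) and 1.67 (1.07 to 2.60). The interval of the CD8 gate includes equal shares. No cell of the CD4 gate (0 of 10 and 0 of 26) belonged to the group. GA killer-receptor cells were deeper than control ones, with a median of 11262 and 8378 UMIs. After every cell was thinned to 2000 UMIs, the group held 21 of 94 GA T cells (22.3%) and 6 of 89 control T cells (6.74%), a ratio of 3.31. The higher share in GA was therefore also present at equal depth. In the neutrophil gate 0.147% and 0.0985% of cells passed the same minimum.

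**Figure D2:**
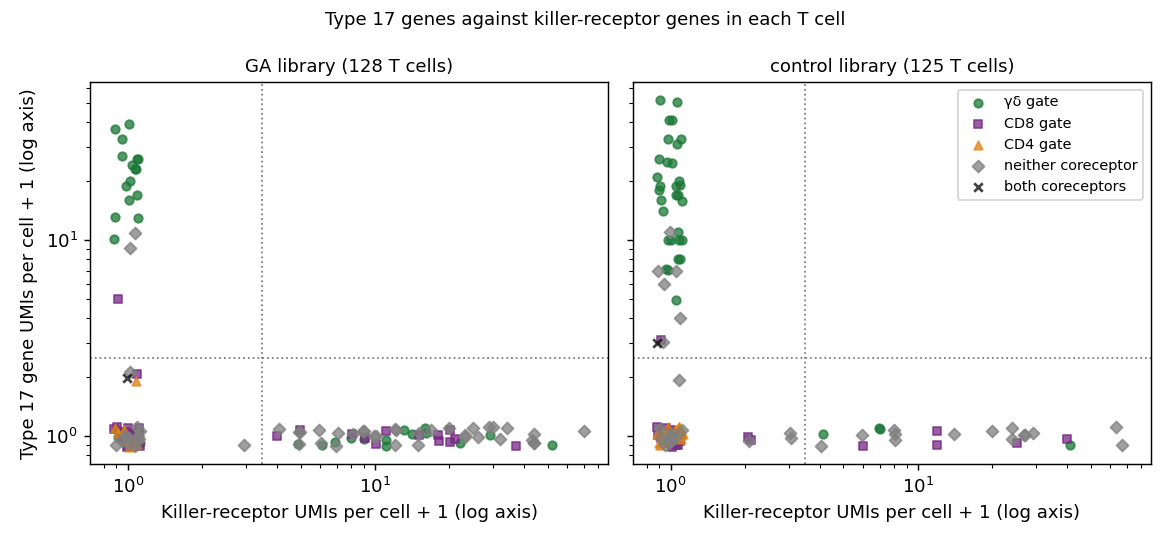
Each point is 1 T cell of the GA library (left) or the control library (right), with its UMIs of the 6 killer-receptor genes plus 1 (x axis) and of the 4 type 17 genes plus 1 (y axis), both on log axes with a small jitter; colours and shapes give the gate and dotted lines the minimum of each group. No cell lies away from both axes, so no T cell held a UMI of both gene sets, and the GA library has more points along the x axis and fewer along the y axis.

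Type 17 genes and killer receptors were not seen together. Not a single T cell of either library held a UMI of both gene sets (0 of 128 and 0 of 125, where the floor of 3 cells stands at 2.34% and 2.40%). The exact intervals reach 2.84% and 2.91%. They cover cells with a UMI of both sets, not cells that express both. Among γδ cells, 5 in GA and 1 in control had neither programme. Over all gates, 19 GA T cells (14.8%) and 39 control T cells (31.2%) passed the type 17 minimum, and 49 (38.3%) and 63 (50.4%) belonged to neither group.

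Killer-receptor T cells were set beside the cells of the CD3-low Klr gate that passed the same minimum. That gate (at least 3 UMIs of Ncr1, Klrb1c and Klrd1, and at most 2 of CD3) held 138 GA and 198 control cells, and 66 and 90 of them carried the killer receptors. The whole gate is mixed: its macrophage and dendritic cell markers summed to 11351 CPM in GA and 21678 CPM in control, above its NK and ILC markers at 4188 and 4820 CPM. These sums are for the whole gate and not for the 66 and 90 cells compared next. The part of the macrophage and dendritic cell markers in the values given next was not tested. CD3 counts are fixed by the rules of both sets and are not compared. The α chain gene Trac was found in 45 of 60 GA and 10 of 23 control killer-receptor T cells, and in 6 of 66 and 5 of 90 CD3-low Klr gate cells (9.09% and 5.56%). Bcl11b was found in 53.3% and 39.1% of the former and in 7.58% and 4.44% of the latter. Gzma, the gene of the protease granzyme A, showed the opposite pattern, with a UMI in 9 of 60 and 8 of 23 killer-receptor T cells and in 92.4% and 92.2% of the CD3-low Klr gate cells. The β chain gene Trbc1 did not separate them, with a UMI in 71.7% and 65.2% of the T cells and in 78.8% and 86.7% of the gate cells. Klra8 was seen in 3 of 60 and 3 of 23 of the T cells against 45 of 66 and 54 of 90 of the gate cells. Cd160, a receptor for class I molecules and HVEM, was found in 63.3% and 65.2% of the T cells and in 25.8% and 32.2% of the CD3-low Klr gate cells. In both libraries, then, Trac, Bcl11b and Cd160 were found in a larger share of the killer-receptor T cells, and Gzma and Klra8 in a larger share of the gate cells.

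The control killer-receptor cells stood closer to the CD3-low Klr gate than the GA ones in some of these measures. Among those with neither coreceptor, Trac was found in 30 of 33 cells in GA (90.9%) against 5 of 14 in control (35.7%), a ratio of 2.55 (1.25 to 5.18). The GA cells among them were deeper, with a median of 11216 UMIs against 7735, and Trac was not read at equal depth here or in the next ratio. Klra4 was found in 0 of 60 GA and 4 of 23 control killer-receptor cells against 47.0% and 46.7% of the CD3-low Klr gate cells. When only cells with a Trac UMI or in the γδ gate were counted, the group was 57 of 128 T cells in GA and 14 of 125 in control, and the ratio was 3.98 (2.34 to 6.76). Segments of the α and β variable regions were sparse. Of the 46 GA killer-receptor cells in the αβ gates, 19 held a Trav or Trbv UMI. They spread over 19 segments with at most 3 cells for 1 of them (Trbv12-2). In control 7 of 19 such cells held one, over 8 segments with at most 2 cells for 1 of them (Trav13-1). No single segment dominated among the cells with a segment UMI, and the other cells could not be read.

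Other genes that led the killer-receptor cells over the remaining T cells in both libraries were Klra1, Aoah, Klra6, Xcl1, Cd160 and Klra3. Xcl1, a chemokine for cross-presenting dendritic cells, stood at 621 CPM in GA and 931 CPM in control killer-receptor cells, against 30.6 and 37.3 CPM in the other T cells. Icos, a costimulatory receptor, went the other way, at 79.0 and 25.2 CPM against 582 and 676 CPM. Fcer1g, a signalling chain shared with NK cells, was found in 88.3% and 87.0% of the group and 13.2% and 7.84% of the other T cells. The same cells gave both the receptors that defined the group and these genes, so the values are a description.

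The CD4 and CD8 gates carried genes known from these lineages. In the CD4 gate the leading genes besides Cd4 were Slamf1, Ifi27l2a, Ctla4, Zfp831, Tank, Apaf1, Inpp4b, Ly6a and Cd5. Ctla4, the inhibitory receptor of regulatory and activated T cells, stood at 1494 CPM in GA and 578 CPM in control, against 81.8 and 128 CPM in the other T cells. Foxp3, the transcription factor of regulatory T cells, was found in 12 GA T cells (9.38%, 4.94 to 15.8) and 11 control T cells (8.80%), a ratio of 1.07 (0.488 to 2.32). Within the CD4 gate it was seen in 6 of 10 and 5 of 26 cells, a ratio of 3.12 (1.22 to 7.96). The number of cells with Foxp3 was thus alike in both libraries. Outside the CD4 gate, 4 GA and 3 control Foxp3 cells had neither coreceptor, 0 and 2 were in the CD8 gate, 1 and 0 in the γδ gate, and 1 and 1 held both coreceptors. Cells of the CD4 gate without Foxp3 numbered 4 in GA and 21 in control, which leaves out any CD4 cell without a Cd4 UMI. Foxp3 was found in 2 of 4767 GA and 0 of 2030 control cells of the neutrophil gate.

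In the CD8 gate the leading genes besides Cd8b1 and Cd8a, which define it, were Gzmk, Gm44174, Gzmm, Dapl1, Il1b, Fam241a, Slc7a11 and Ccr7. Gzmk, the gene of granzyme K, stood at 81.8 CPM in GA (11 of 34 cells) and 69.3 CPM in control (7 of 28 cells), against 1.09 and 1.31 CPM in the other T cells. Il1b, a cytokine gene of neutrophils and macrophages, is on the neutrophil list, and 107 of its 150 GA UMIs and 56 of its 77 control UMIs came from 1 cell of each library. Ccr7, the receptor for homing to lymph nodes, was at 64.6 CPM in GA and 226 CPM in control, but 59 of the 107 control UMIs over all T cells came from 1 cell.

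**Figure D3:**
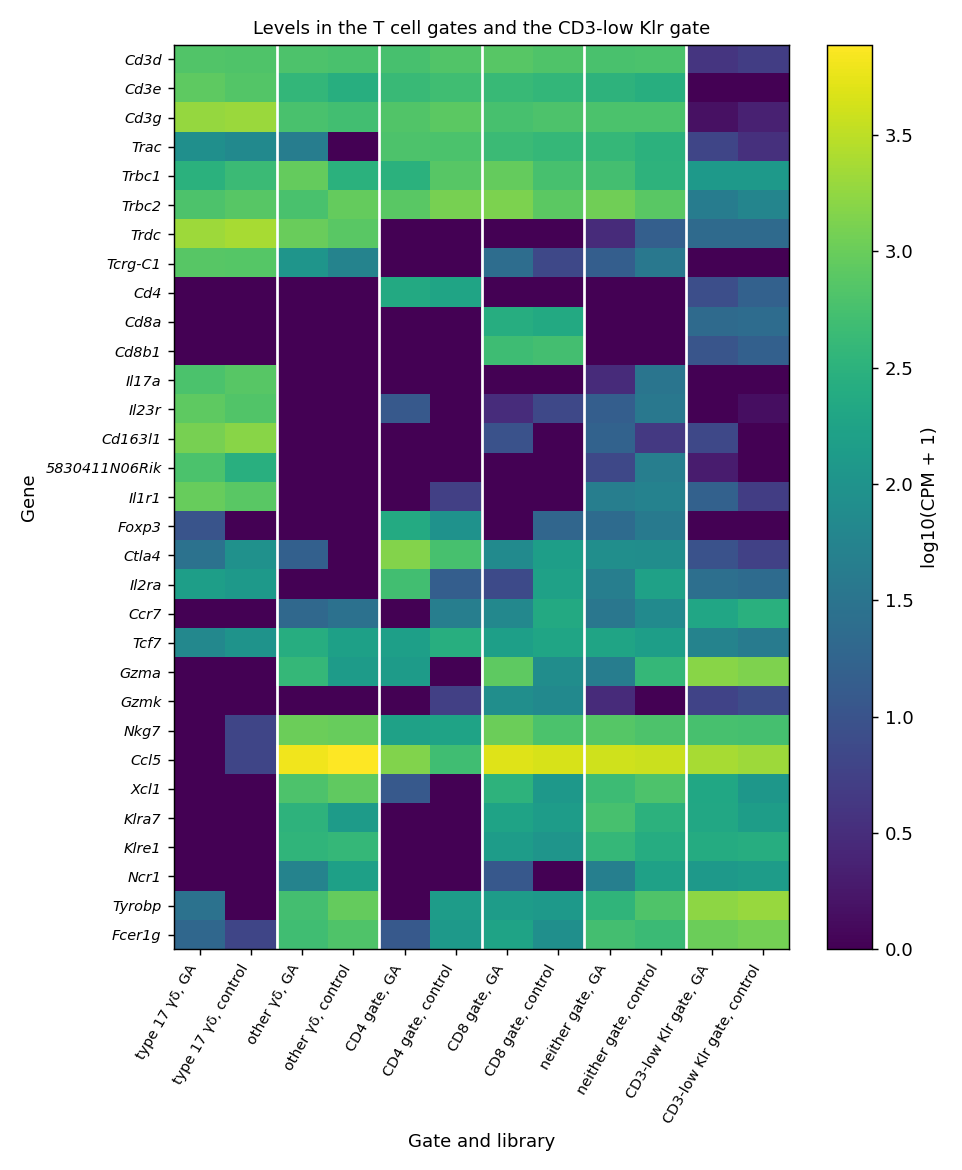
Levels of 31 genes (rows) in the T cell gates and in the CD3-low Klr gate, with the GA and control libraries side by side (columns), as log10 of CPM plus 1 (colour scale). The type 17 genes stand out in the type 17 γδ columns of both libraries, where Klra7, Klre1 and Xcl1 are at 0, while the killer receptors extend over the other γδ cells, the CD8 gate and the cells with neither coreceptor and are at 0 in the CD4 gate.

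Over all T cells, 6244 genes had at least 50 UMIs in both libraries together, and the middle of their log2 ratios of GA over control was -0.06. A log2 ratio of 1 or more in size was reached by 219 genes (3.51%), 56 of them higher in GA (0.897%) and 163 lower (2.61%). When each cell was given the same weight, 206 genes were past the threshold and 38.3% of them were higher in GA, against 25.6% with the summed counts. The first 3 percentages are the background for the gene lists given further on. With 1 library in each group, none of these differences can be set against a spread between mice.

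The genes furthest apart were partly carried by a few cells of mixed character. The 10 highest in GA were Cd14, Thbs1, S100a8, S100a9, Retnlg, Lyz2, Klra1, BC035044, Ccl4 and Crtam. Thbs1 (thrombospondin 1) stood at 142 UMIs in GA and 7 in control, but 132 of the former came from 1 cell, and without the richest cell of each library its log2 ratio went from 4.01 to 0.40. Lyz2 (lysozyme) went from 2.43 to 0.12 in the same way, with 331 of 409 GA UMIs in 1 cell. In GA, 2 T cells had 50 or more UMIs of Lyz2, S100a8, S100a9 and Cd14 and held 973 of the 1734 such UMIs. Klra1, another Ly49 gene, had 253 UMIs in GA, spread over 33 cells, and 45 in control, over 9 cells, a log2 ratio of 2.15 (1.69 to 2.65), and 2.27 without the richest cells. Crtam, an adhesion receptor of cytotoxic T and NK cells, was at 73 UMIs in 28 cells and 17 UMIs in 17 cells, a log2 ratio of 1.77 (0.99 to 2.62). Ccl4, a chemokine of activated cytotoxic cells, had 101 of its 167 GA UMIs in 1 cell, and its log2 ratio came to 0.95 without the richest cells.

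The 10 lowest in GA were H2-Ab1, Cd74, Basp1, Hspa1a, Ccdc88a, Fabp5, Tcf4, Specc1, Hspa1b and Prcp. H2-Ab1 and Cd74 belong to the class II machinery of antigen-presenting cells, and 3 control T cells held 2899 of the 2957 control UMIs of H2-Aa, H2-Ab1, H2-Eb1 and Cd74. Of the 45 UMIs of these genes in GA, no cell held more than 5. As an alternative chosen after the data were seen, the cells rich in myeloid or class II genes were left out of both libraries. The log2 ratio of Cd74 then went from -5.59 to -0.86 and that of Fabp5, a fatty acid carrier, from -3.23 to -1.34. With those cells left out, 162 of 5977 genes (2.71%) were past the threshold, in place of 219 of 6244 (3.51%). Hspa1a, an inducible heat shock gene, had 12 UMIs in GA (6 cells) and 198 in control (20 cells), a log2 ratio of -4.38 (-5.36 to -3.54), and -3.91 without the richest cells. Over the alternatives this ratio lay between -4.51 and -3.00, and that of Hspa1b, at -2.74, lay between -2.83 and -1.25. Over all cells of the libraries, Hspa1a was at 96.2 CPM in GA and 207 CPM in control, so that its level was lower in GA over all cells as well. Tcf4 had 113 of 137 control UMIs in 1 cell.

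**Figure D4:**
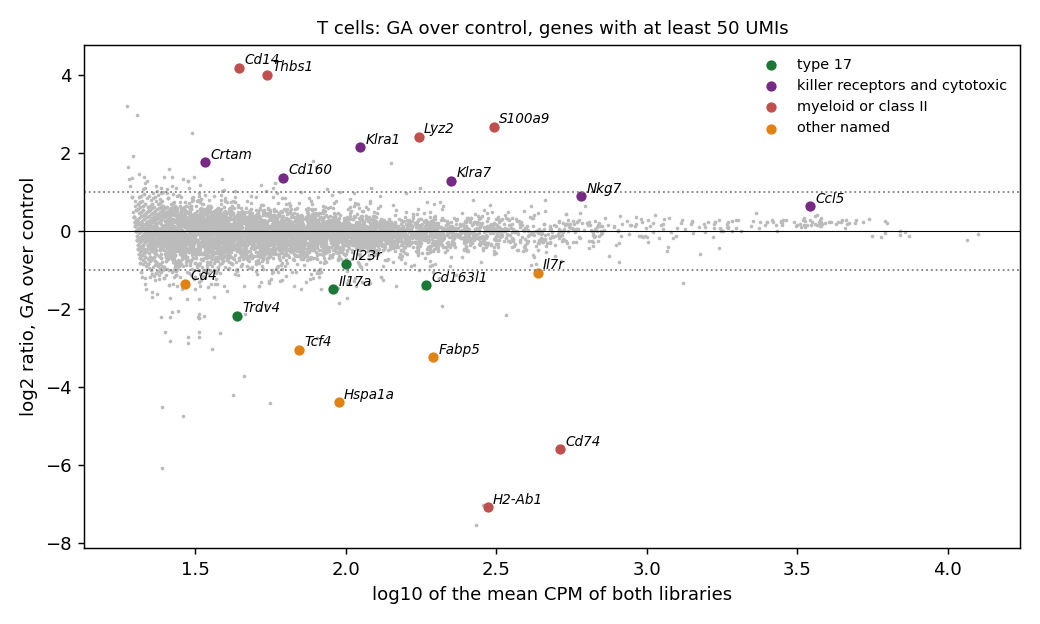
For each of 6244 genes with at least 50 UMIs in the T cells, the log2 ratio of GA over control (y axis) against the log10 of the mean CPM of both libraries (x axis), with dotted lines at a log2 ratio of 1 in size and named genes coloured by group. The labels are a selection: Klra1, Klra7, Cd160, Nkg7, Ccl5 and Crtam lie above 0, but of the same kind of genes Ncr1 (-0.77), Klrg1 (-0.77), Gzmb (-0.62) and Klra4 (0 GA and 54 control UMIs) lie below 0. The labelled type 17 genes lie below 0, and among the points furthest out are H2-Ab1 and Cd74, carried mostly by 3 control cells, and Hspa1a, found in 20 control cells.

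Effector lists differed in direction. Of the 18 type 17 genes, 13 passed the minimum of 50 UMIs; 6 were lower in GA by a log2 ratio of 1 or more (among them Il17a, Cd163l1, Tmem176a, Tmem176b and Serpinb1a), none was higher, and the median was -0.85 against -0.06 over all genes. Il23r was at 72.2 and 129 CPM, a log2 ratio of -0.83 (-1.22 to -0.45). All 13 cytotoxic genes passed, 10 lay above 0 (Gzmb did not, at 96.8 and 149 CPM) and 1 was past the threshold, with a median of 0.51 that came to 0.29 without the cells with the highest doublet scores. That gene was Gzma, at 360 and 131 CPM, but 201 of its 498 GA UMIs came from 1 cell, and its log2 ratio of 1.45 came to -0.59 when the cells with the highest doublet scores were left out. Nkg7, a granule protein gene, was at 788 and 421 CPM, a log2 ratio of 0.90 (0.74 to 1.06). Ccl5 was at 4241 and 2725 CPM, a log2 ratio of 0.64 (0.57 to 0.70). On the type 1 list, 11 of 12 genes passed, 9 lay above 0 and 2 (Ccl3 and Ccl4) were past the threshold, with a median of 0.68 that came to 0.32 after thinning and 0.39 at the same gate makeup. Both chemokine genes rested on few cells: the 47 GA UMIs of Ccl3 (4 in control) lay in 5 cells, 21 of them in 1 cell, and 101 of the 167 GA UMIs of Ccl4 lay in 1 cell, with a log2 ratio of 0.95 without the richest cells. Tbx21, the transcription factor T-bet, was at 105 CPM in GA (53 cells) and 56.6 CPM in control (29 cells), a log2 ratio of 0.89 (0.45 to 1.34). Ifng itself was at 48.4 and 38.3 CPM, a log2 ratio of 0.34 (-0.24 to 0.93). On the type 2 list, 3 of 8 genes passed, 1 (Areg) was lower past the threshold, the median was -0.72, and Il4, Il5 and Il13 had no UMI in any T cell.

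Regulatory and residency lists held members past the threshold in 1 direction, lower in GA. On the regulatory list 10 of 14 passed and 4 were lower past the threshold (Il2ra, Tnfrsf4, Itgae and Areg), while Ikzf2 was higher, at 938 and 782 CPM; the median of -0.68 came to -0.14 at the same gate makeup in both libraries and to 0.08 after thinning to 2000 UMIs. Areg had 78 of 115 control UMIs in 1 cell, and its log2 ratio of -1.30 came to -0.96 without the richest cells. On the residency list 9 of 11 passed and 2 (Itgae and Cxcr6) were lower past the threshold, with a median of -0.32. The log2 ratio of Itgae was -1.41 and lay between -1.77 and -0.89 over the alternatives, so that its call was lost in at least 1 of them. Cxcr6 was at 147 CPM in GA (44 cells) and 320 CPM in control (66 cells), a log2 ratio of -1.12 (-1.38 to -0.87). Of the inhibitory receptors 7 of 9 passed, with a median of -0.36, which came to -0.01 as a mean over cells, -0.02 at the same gate makeup and -0.03 after thinning. Pdcd1, the gene of PD-1, was lower in GA, at 50.5 and 138 CPM (-1.45, -1.88 to -1.03), and 111 of its 151 control UMIs were in the type 17 γδ cells. Havcr2 was lower past the threshold as well, and Cd160 higher, at 89.5 and 34.7 CPM (1.37, 0.83 to 1.93). The lists of naive and recirculating genes (10 of 11 passed, median -0.02), activation and immediate early genes (15 of 20, median -0.02), interferon response genes (10 of 16, median -0.11) and cell cycle genes (15 of 16, median 0.06) had medians close to that of all genes. The interferon median was, however, 0.22 at the same gate makeup and 0.25 with a minimum of 20 UMIs. The naive and recirculating list held Ccr7 and Il7r past the threshold, both lower in GA. The activation and immediate early list held the cytokine gene Tnfsf11, also lower in GA, while the interferon and cell cycle lists held none. Mki67, a gene of cycling cells, was found with at least 2 UMIs in 15 GA (11.7%) and 13 control T cells (10.4%).

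All 11 receptor constant and CD3 genes passed and none was past the threshold (median -0.07), but 3 of them are the CD3 genes that the rule used. The 8 others lay between -0.64 (Tcrg-C1) and 0.46 (Trbc1). Of 12 variable segments of the γ and δ chains, 2 passed (median -1.05), and Trdv4 was lower in GA, at 15.9 and 71.2 CPM, a log2 ratio of -2.16 (-2.92 to -1.47). All 17 coreceptor and signalling genes passed (median -0.02), and Cd4 alone was past the threshold, at 16.6 and 42.0 CPM (-1.34, -2.13 to -0.59). Cd4 also defines the CD4 gate, so this repeats the difference in that gate's size. Of the T cell transcription factors 16 of 19 passed, with a median of -0.22. Among 16 cytokine receptors (median 0.03), Il7r and Il6ra were lower in GA. Il7r, the receptor for the survival cytokine interleukin 7, was at 281 CPM in GA (68 cells) and 587 CPM in control (93 cells), a log2 ratio of -1.06 (-1.25 to -0.88). Over the alternatives this ratio lay between -1.10 and -0.67, so that the call was lost in at least 1 of them. Il7r was lower in GA in the CD8 gate (155 and 494 CPM) and the CD4 gate (226 and 403 CPM), but not in the type 17 γδ cells (1347 and 1217 CPM). Of 14 chemokine receptors, 6 passed and Ccr7 and Cxcr6 were lower past the threshold (median -0.35, and 0.15 without cells rich in myeloid or class II genes). The log2 ratio of Ccr7 came from -1.41 to -0.50 without its richest cells. Thymocyte genes (3 of 8 passed, median -0.56) held Il7r past it, and Rag1 was seen with 1 UMI in GA and 0 in control.

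Cytokines that reach bone and neutrophils were led by Ltb, the lymphotoxin β gene, at 426 CPM in GA (109 cells) and 527 CPM in control (112 cells). On that list 7 of 17 genes passed, 3 were lower past the threshold (Il17a, Tnfsf11 and Areg) and the median was -0.31. Each of the 3 calls ended in at least 1 alternative. The log2 ratio came to -0.95 for Il17a, -0.87 for Tnfsf11 and -0.96 for Areg. Tnfsf11, which encodes the osteoclast factor RANKL, had 16 UMIs in GA (9 cells) against 39 in control (13 cells), a log2 ratio of -1.62 (-2.56 to -0.75). Over all cells the same gene was at 6.94 CPM in GA and 21.7 CPM in control, so that it was lower in GA over all cells as well. Tnf was at 35.4 and 41.1 CPM, and Tgfb1 at 215 and 175 CPM, neither past the threshold.

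Nerve factor receptor genes summed to 199 CPM in GA T cells and 293 CPM in control T cells, against 273 and 239 CPM over all cells. Hedgehog genes were sparser, at 30.3 and 50.2 CPM in T cells against 66.4 and 117 CPM over all cells. Among the 16 neurotrophin and neuropeptide receptor genes, 3 passed the minimum (median -0.46), and Ramp3, a partner of calcitonin family receptors, was lower in GA at 51.3 and 109 CPM (-1.08, -1.53 to -0.65). Ramp1, which forms the receptor for the nerve peptide CGRP with Calcrl, was at 92.4 and 127 CPM, a log2 ratio of -0.46 (-0.81 to -0.10). Of 11 hedgehog genes, Sufu alone passed, at 20.2 and 34.7 CPM (-0.78, -1.54 to -0.04), and Smo, Shh and Ihh had no UMI.

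Metabolic and stress lists showed no shared direction. Oxidative phosphorylation genes (12 of 12 passed, median 0.08) and glycolysis and hypoxia genes (10 of 12, median 0.06) had no member past the threshold. Heat shock genes (8 of 8 passed, median -0.20, and 0.11 after thinning) had Hspa1a, Hspa1b and Hsph1 lower in GA, the last with 39 of 98 control UMIs in 1 cell and a log2 ratio that came from -1.05 to -0.47 without the richest cells, while Hspa8 was at 1158 and 1111 CPM. Of the lipid genes known from type 17 γδ cells, 3 of 8 passed (median -0.48), and Fabp5 alone was past the threshold.

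Marker lists of other cell types were read in the same T cells. The 12 neutrophil markers summed to 1155 CPM in GA T cells and 263 CPM in control T cells, led by S100a9 in both, against 97170 and 27750 CPM over all cells of the libraries. Of these, 6 passed the minimum and 4 were higher in GA past the threshold (S100a8, S100a9, Ngp and Retnlg), with a median of 1.89. The granule genes Camp, Ngp, Ltf, Lcn2 and Retnlg together were at 0.817% of their all-cell level in GA T cells and at 0.854% in control T cells, so that they scaled with the neutrophil RNA of each library. With a background of free RNA subtracted, the control values of S100a8, S100a9 and Retnlg fell below the floor of 3 UMIs. Their ratios then rest on that floor and are not given. The log2 ratio of Lyz2 went from 2.43 to 4.12, with 331 of its 409 GA UMIs in 1 cell. Without the richest cells, the log2 ratio of S100a8 went from 2.72 to 2.13, of S100a9 from 2.68 to 1.89 and of Retnlg from 2.53 to 2.79. Of the 743 S100a9 UMIs in GA, 335 came from 1 cell. With the highest doublet scores removed, S100a8 came to 2.15 and S100a9 to 1.82.

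The 15 macrophage and dendritic cell markers summed to 389 CPM in GA, led by Lyz2 and with 3 markers at 0, and to 2374 CPM in control, led by Cd74. Of 5 that passed, Lyz2 was higher in GA and Apoe, H2-Aa, H2-Ab1 and Cd74 were lower, with a median of -5.59, which came to -0.86 without the cells rich in myeloid or class II genes. The 14 NK or ILC markers summed to 1496 CPM in GA, led by Fcer1g, and 1078 CPM in control, led by Tyrobp, each with 1 marker at 0. Of 12 that passed, Klra7 and Klre1 were higher in GA and Klra4 was lower (0 and 54 UMIs, the latter in 4 cells), with a median of 0.06 that came to 0.92 with a minimum of 200 UMIs and 0.84 after thinning. Ncr1 was at 28.9 and 49.3 CPM. B cell markers were low, at 119 and 133 CPM and led by Ighm, with Ms4a1 at 0 in both libraries, and 1 of 10 passed (Ighm, log2 ratio 0.27, -0.12 to 0.67). Mesenchymal markers stood at 338 and 595 CPM, led by Col1a1 and with Pdgfra at 0 in both, and 4 of 11 passed, none past the threshold, with a median of -0.80. None of the 8 erythroid and mast cell markers passed, and they summed to 18.8 and 33.8 CPM, led by Hbb-bs. The rule itself limits Csf1r, Cd79a, Cd79b, S100a8, S100a9 and the collagen genes in these cells, and the part of these other cells in the ratios was not tested.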

How the data were processed

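Single-cell RNA libraries of the GA and control pools were deposited as matrices of UMI counts per gene and cell. Per the file headers the authors made the counts with Cell Ranger 7.0.1, and the submitters' processing notes name mm10. Nothing had been normalized. The dose and duration of GA given above are those of the labels, and the methods of the study state others. Cells with 500 to 140000 UMIs, 200 to 9500 genes and at most 15% mitochondrial UMIs were kept, and the T cell rule given above was applied. Doublets were not removed. Scrublet (scanpy 1.11.5) called 0 GA and 39 control barcodes by its own threshold and so did not work, and as an alternative the 695 and 608 barcodes with the highest scores were removed, among them 9 and 3 T cells. The members, the 31 gene lists and the groups were chosen with earlier results of these data known.

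UMIs were summed over the T cells of each library and divided by their total (CPM). Genes with at least 50 UMIs over both libraries were compared, and a gene was counted at a log2 ratio of 1 or more in size. Shares have exact Clopper-Pearson intervals, CPM exact Poisson intervals, ratios of shares log-normal intervals and log2 ratios exact conditional binomial intervals, all at 95% and for counting error only. A floor of 3 UMIs or cells was used where a value was 0. Named genes were those of the lists, the 10 highest and 10 lowest by log2 ratio among these genes with a UMI in at least 10 T cells of the library where they were higher (mitochondrial and ribosomal protein genes left out), and the 10 genes with the highest CPM ratio of the γδ, CD4 or CD8 gate over the other T cells in both libraries, with at least 50 UMIs in the gate. Genes named for the killer-receptor cells and not on a list were chosen after their values were seen. The type 17 and killer-receptor groups were set after the values were seen. Some genes of the lists are counted there but not reported here. Gene positions are from GENCODE vM21 and promoters from RefSeq, both on GRCm38. The steps were tested on simulated data and run with Python 3.11.15, NumPy 2.4.6 and SciPy 1.17.1.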

Additional observations from a re-analysis of the deposited data

How the results depend on the processing

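With 1 library of pooled mice in each group, no spread between mice is known, and treatment, pool and library cannot be told apart. No paired analysis was possible because each condition has 1 library. Alternatives on the killer-receptor and type 17 groups and on cells rich in myeloid or class II genes were chosen after seeing the data. The T cell share ratio of 0.917 was 1.46 without cells of at least 3% S100a8 and S100a9, the CD8 ratio of 1.19 was 1.89 after thinning to 2000 UMIs and 1.12 at 4000, and the killer-receptor ratio of 2.55 was 3.98 when only cells with Trac or in the γδ gate counted. Over the alternatives run, the GA over control ratio of the type 17 share of the γδ gate lay between 0.531 and 0.688, that of the CD4 share between 0.218 (thinned to 4000 UMIs) and 0.391, and that of the γδ share between 0.655 (thinned to 2000 UMIs) and 0.956. Of all genes, 219 of 6244 (3.51%) were past the threshold. The count was 650 of 8829 (7.36%) with a minimum of 20 UMIs and 44 of 2215 (1.99%) with 200 UMIs. After thinning to 2000 UMIs it was 51 of 1777 (2.87%). The cytotoxic median was 0.29 with the highest doublet scores removed. The type 1 median of 0.68 was 0.47 with a minimum of 200 UMIs, 0.45 as a mean over cells, 0.32 thinned, 0.46 with doublets removed, 0.39 at the same gate makeup and 0.42 without cells rich in myeloid or class II genes. The interferon median of -0.11 was 0.25 with a minimum of 20 UMIs, 0.18 as a mean over cells and 0.22 at the same makeup. The NK or ILC median of 0.06 was 0.92 with a minimum of 200 UMIs, 0.38 as a mean over cells, 0.84 thinned, 0.29 with doublets removed and 0.56 with at least 5 CD3 UMIs. The neutrophil median was 1.64 with 20 UMIs, 2.68 with 200 UMIs and 1.63 without the richest cell per gene. Direction turned for Lyz2 (-0.28 without cells rich in myeloid or class II genes), Gzma (-0.59 with doublets removed) and Cd4 (0.27 at the same gate makeup, which fixes the gate that Cd4 defines). List medians that turned included those of the regulatory (0.08 thinned), chemokine receptor (0.15 without cells rich in myeloid or class II genes), heat shock (0.06 with 200 UMIs and 0.11 thinned) and interferon lists. Calls past the threshold that ended in an alternative included those of Il17a (-0.95), Tnfsf11 (-0.87), Il7r (-0.67) and Itgae (-0.89). The causes were not tested. The type 17 median stayed between -0.99 and -0.75.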

Other observations

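The 3 CD3 genes differed in how often they appeared in the neutrophil gate, which should lack them. Cd3d was found in 226 of 4767 GA cells (4.74%, 4.16 to 5.38) and 113 of 2030 control cells (5.57%, 4.61 to 6.65) of that gate, Cd3e in 9 (0.189%) and 3 (0.148%), and Cd3g in 19 (0.399%) and 20 (0.985%). In the B gate none of the 3 genes was allowed by its definition. Among the T cells, 1 GA cell and 0 control cells rested on Cd3d alone.

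The β chain constant gene Trbc1 was found in 52 of 66 GA and 78 of 90 control cells of the CD3-low Klr gate that carried killer receptors (78.8% and 86.7%), while Trac was found in 9.09% and 5.56% of them. Trdc was found in 39.4% and 38.9% of the same cells.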
